A study of Mus musculus with 12 samples.

Results

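The enzymes of gluconeogenesis, the pathway that makes new glucose, were followed through 9 genes of the 18194 named on the array: Pcx, Pck1, G6pc, Fbp1, Fbp2, Got1, Gpt, Tat and Sds. Members were the probe sets that carry one of these as their single gene symbol, where a probe set is a group of short array probes against one transcript. Of the 45101 probe sets on the array, 15 qualified, out of 34958 with 1 symbol. Pcx had 5 of them, Pck1 3, Gpt 2, and G6pc, Fbp1, Fbp2, Got1 and Tat 1 each, so that 8 of the 9 genes had a value. Sds was listed with 0 such probe sets and was not analysed here. Of the 15, 11 were ordinary probe sets and 4 were chip control probe sets that cover successive parts of the Pcx transcript.

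The study compared C57BL/6 mice carrying a hypomorphic PGC1beta mutation, one that lowers the function of the gene without removing it, with WT/control mice of the labelled strain. Total RNA from liver and from quadriceps muscle was hybridised to Affymetrix Murine 430 2.0 arrays, with 3 arrays in each of 4 groups: liver control, liver mutant, muscle control and muscle mutant. Age, sex, feeding state and allele are not stated in the labels. Nor do they say whether the samples of a group were separate mice, so the p-values below reflect a sample-to-sample spread that could be technical.

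Gluconeogenesis runs mainly in liver and kidney cortex and keeps blood glucose up during fasting. Lactate, alanine and other amino acids enter as pyruvate or oxaloacetate, a mitochondrial carboxylase and a phosphoenolpyruvate-forming kinase carry them past the pyruvate kinase step, and a pair of phosphatases returns the chain to free glucose. Glucagon, glucocorticoids and fasting raise transcription of several of these genes and insulin lowers it, and coactivators of the PGC-1 family take part in this control in liver.

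Promoter sequence was available for 7 of the 9 genes, in 8 windows of 250 bases ending just before the RefSeq transcript start (build GRCm38.p6, with Pcx at both of its starts), but not for Gpt and Sds. The windows of 4 genes are shown. Pck1 and Got1 were lower in mutant liver, and Fbp1 and Fbp2 are neighbours on chromosome 13, 6352 bases apart, with opposite tissue patterns. Pcx and Tat were lower in mutant liver too, but their windows held 0 matches and are not shown. The G6pc window, also with 0, is not shown either. A link between a match and a level was not tested. Capitals mark matches to the motifs searched.
Pck1, chr2:173152823-173153072, plus strand: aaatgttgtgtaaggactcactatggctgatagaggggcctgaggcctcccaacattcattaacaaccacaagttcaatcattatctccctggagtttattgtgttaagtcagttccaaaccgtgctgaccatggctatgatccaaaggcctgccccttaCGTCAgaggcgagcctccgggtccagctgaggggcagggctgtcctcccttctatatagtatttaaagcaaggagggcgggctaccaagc
Got1, chr19:43524606-43524855, minus strand: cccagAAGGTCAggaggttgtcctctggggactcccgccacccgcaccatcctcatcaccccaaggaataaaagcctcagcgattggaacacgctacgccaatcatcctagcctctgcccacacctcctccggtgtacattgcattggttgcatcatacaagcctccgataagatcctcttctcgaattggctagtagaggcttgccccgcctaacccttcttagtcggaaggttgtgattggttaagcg
Fbp1, chr13:62888283-62888532, minus strand: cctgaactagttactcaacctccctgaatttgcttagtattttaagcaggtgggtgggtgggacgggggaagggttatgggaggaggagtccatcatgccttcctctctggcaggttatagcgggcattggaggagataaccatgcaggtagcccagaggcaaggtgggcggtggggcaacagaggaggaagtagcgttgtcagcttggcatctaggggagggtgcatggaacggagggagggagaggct
Fbp2, chr13:62858401-62858650, minus strand: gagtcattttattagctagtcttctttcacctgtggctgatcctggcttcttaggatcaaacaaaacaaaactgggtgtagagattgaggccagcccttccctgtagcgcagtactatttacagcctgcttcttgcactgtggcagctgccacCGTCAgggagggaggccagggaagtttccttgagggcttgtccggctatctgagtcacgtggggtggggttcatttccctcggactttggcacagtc
Motifs were searched on both strands. The cAMP response element core TGACG, read here as CGTCA from the opposite strand, lay in the windows of Pck1, from -90 to -86 relative to the start, and of Fbp2, from -97 to -93. It was present in 17.8% of 32851 mouse promoter windows of this length. The estrogen-related receptor element AAGGTCA lay in the Got1 window, from -245 to -239, and in 4.08% of all windows. The FOXO element TGTTTAC, in 3.17% of all windows, and the glucocorticoid receptor motif TGTTCT, in 16.1%, had 0 matches among the 8 member windows. A match describes these letters only, and binding was not measured.

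Ppargc1b, the gene of PGC1beta, was read by probe set 1449945_at at intensities of 544, 282 and 479 in liver controls 1, 2 and 3 and of 402, 491 and 202 in liver mutants 1, 2 and 3. The groups overlapped, with a log2 difference of -0.28 ± 0.32 (SE, n = 3 and 3, limma adjusted p = 0.717). Muscle controls read 302, 284 and 332 and muscle mutants 423, 279.9 and 271. They overlapped too (log2 difference 0.06 ± 0.17, SE, limma adjusted p = 0.995). The sources used here do not place the mutation relative to this probe set, so the reading does not check the genotype labels. Median deposited intensity was 27.2 to 40.1 per liver array and 20.1 to 22.3 per muscle array, and the number of arrays limits the precision. In liver mutants 1 and 3 the ratio of 3' to 5' chip control probe sets, a reading of how complete the labelled RNA was, stood above the controls. For Actb it was 2.89 in mutant 1, 1.64 in mutant 2 and 2.71 in mutant 3 against 1.44 to 1.64 in liver controls, and for Gapdh 1.52, 0.977 and 1.37 against 0.835 to 1.08. Over the 6 muscle arrays the Actb ratio was 0.910 to 1.03 and the Gapdh ratio 0.870 to 0.940.

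In liver, of the 10 ordinary member probe sets above the intensity filter, 3 fell and 0 rose: Pcx 1416383_a_at, Pck1 1439617_s_at and Got1 1450970_at. A call is an adjusted p under 0.05 in limma, a linear model with a shared estimate of spread, with Benjamini-Hochberg adjustment over all 27022 probe sets tested in liver, of which 0.600% were called lower and 1.45% higher. In 6 of the 10 the highest mutant array lay below the lowest control array, against 10.9% of all probe sets tested. The lower mean was in mutants for 8 of the 10, against 50.3% of all probe sets tested. The median log2 difference of the 10 was -0.55, beside -0.0025 for all probe sets tested. Taken array by array over the leading sets of the 8 genes, the median deviation from the control mean was 0.029, -0.043 and 0.079 on the log2 scale in controls 1, 2 and 3 and -0.72, -0.41 and -0.47 in mutants 1, 2 and 3. The medians of all mutant arrays thus sat below those of all control arrays, which largely restates the sets without overlap above. The medians of all probe sets tested were 0.0005, 0.0070 and 0.010 in controls and 0.016, -0.0017 and 0.035 in mutants. Pck1 1455209_at was the 1 ordinary member not past the liver filter, a mean intensity of 21.5, and it read 30.2, 16.1 and 24.7 in controls and 17.1, 19.5 and 7.17 in mutants. A lower signal in whole liver can mean fewer cells of a type or less RNA per cell, which cannot be told apart here.

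Pyruvate carboxylase, encoded by Pcx (chr19:4510472-4621752), turns pyruvate into oxaloacetate in mitochondria. Its ordinary probe set 1416383_a_at read 2843, 2758 and 2668 in liver controls 1, 2 and 3. It read 1690.2, 2117 and 1576 in liver mutants 1, 2 and 3. Every mutant array was below every control array, and mutant 2 was the nearest to the controls. Pcx fell by 0.63 ± 0.13 on the log2 scale (SE, n = 3 and 3, limma adjusted p = 0.0419), which is 1.54-fold lower. Differences are of log2(value + 16), which understates the change of dim probe sets, after quantile normalisation within the tissue, which gives its arrays one common distribution of values.

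Cytosolic phosphoenolpyruvate carboxykinase, encoded by Pck1 (chr2:173153073-173159274), makes phosphoenolpyruvate from oxaloacetate and is the classic transcriptionally regulated enzyme of the pathway. Its leading probe set 1423439_at, the brightest of the gene over the 12 arrays, read 6899, 6888 and 7849 in controls and 4321, 6079 and 5294 in mutants. The groups did not overlap, but the log2 difference of -0.47 ± 0.13 (SE) missed the threshold (limma adjusted p = 0.0850). The second probe set, 1439617_s_at, read 3769.6, 4289 and 6090.45 in controls and 883, 2656 and 1228 in mutants. It fell by 1.69 ± 0.33 on the log2 scale (SE, limma adjusted p = 0.0384), a 3.22-fold lower signal. Mutants 1 and 3 were far below the controls at this probe set and mutant 2 lay between.

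Fructose-1,6-bisphosphatase removes one phosphate from the sugar and is encoded by Fbp1 (chr13:62864753-62888298) in liver and kidney and by Fbp2 (chr13:62836884-62858400) in muscle. Fbp1 read 12252, 12134 and 11553 in liver controls and 12098, 11746 and 11652 in liver mutants. The arrays of both groups were interleaved, and the log2 difference was -0.02 ± 0.07 (SE, limma adjusted p = 0.939) with a 95% interval from -0.18 to 0.15. Whether a signal of this height was limited by the top of the scale was not tested. Fbp2 was dim in liver, at 38.9, 8.81 and 60.1 in controls and 70.2, 14.9 and 29.0 in mutants. Its log2 difference of 0.07 had a 95% interval from -0.97 to 1.11, too wide to place it on either side of 0.

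The catalytic subunit of glucose-6-phosphatase, encoded by G6pc (chr11:101367716-101377903), releases free glucose in the last step. Its arrays were scattered, at 1683, 2679 and 1162 in liver controls and 708, 769.7 and 2412 in liver mutants. Mutants 1 and 2 lay below all controls and mutant 3 lay above controls 1 and 3. The log2 difference was -0.66 ± 0.43 (SE, limma adjusted p = 0.477).

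Amino acids reach the pathway through aminotransferases. Cytosolic aspartate aminotransferase, encoded by Got1 (chr19:43499752-43524605), interconverts aspartate and oxaloacetate and serves the malate-aspartate shuttle. It read 4696, 3833 and 5459 in liver controls and 2321, 2904 and 2218 in liver mutants, with no overlap. Got1 fell by 0.90 ± 0.15 on the log2 scale (SE, n = 3 and 3, limma adjusted p = 0.0270), a 1.87-fold lower signal. The smallest p-value among the 10 ordinary members was that of Got1.

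Tyrosine aminotransferase, encoded by Tat (chr8:109986078-109999804), is a glucocorticoid-induced liver enzyme of tyrosine breakdown. Tat read 6124, 6267 and 6732 in controls and 2731, 4686 and 4254 in mutants. Mutant 1 was the lowest, and the groups did not overlap. The log2 difference was -0.75 ± 0.17 (SE), with a limma adjusted p of 0.0589 over all probe sets. With 1 probe set per gene and adjustment over 13327 genes it became 0.0445, and Pcx, Got1 and Tat were then the 3 called of 8 genes. That fit called 310 of the 13327 genes higher and 137 lower. Alanine aminotransferase, encoded by Gpt (chr15:76696726-76699675), turns alanine into pyruvate. Its leading probe set 1426502_s_at read 3137, 2623 and 3116 in controls and 2131, 2270.2 and 2088 in mutants, without overlap (log2 difference -0.45 ± 0.11, SE, limma adjusted p = 0.0769). The second set, 1453216_at, read 189.7, 67.7 and 110.5 in controls and 172, 108 and 156 in mutants, with overlap (log2 difference 0.29 ± 0.31, SE, limma adjusted p = 0.687).

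**Figure D1:**
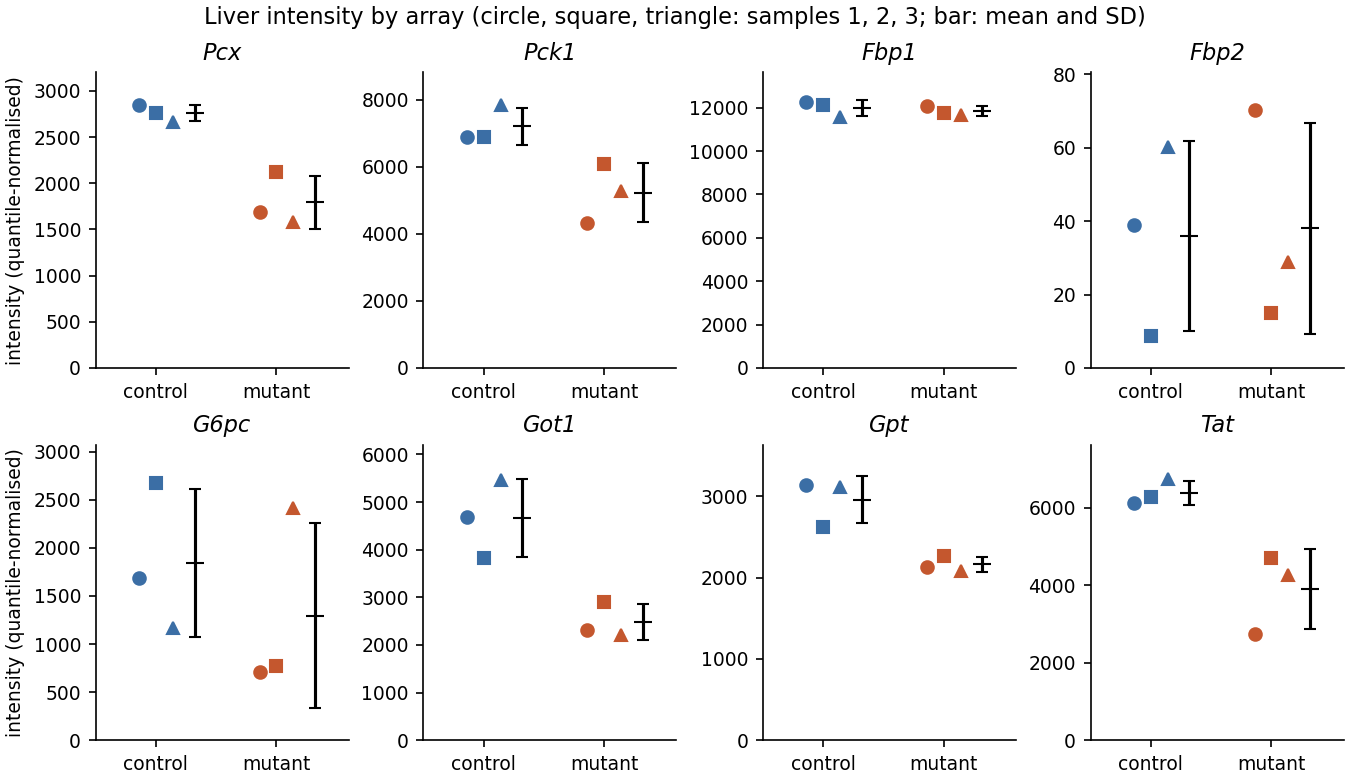
Intensity of the leading probe set of each of 8 enzyme genes on the 6 liver arrays, on linear axes from 0, after quantile normalisation within liver; symbols are samples 1, 2 and 3 and the bar is the mean and SD (n = 3). Pcx, Pck1, Got1, Gpt and Tat have all mutant arrays below all control arrays, while the groups overlap for Fbp1, Fbp2 and G6pc.

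These liver calls rested on few arrays. With liver mutants 1 and 3 left out, so that mutant 2 stood alone and was assumed to vary like the controls, the log2 difference was -0.36 for Pcx, -0.78 for Pck1 1439617_s_at and -0.65 for Got1, and 0 members were called. Without mutant 2, 5 members were called lower: the 3 above, Pck1 1423439_at and Tat, in a fit that called 3.62% of all 27022 probe sets lower. Leaving out control 1, 2 or 3 or mutant 1 or 3 alone left 0 called, in fits that called at most 33 of all 27022 probe sets higher and 5 lower. Limma adjusted p-values then ran from 0.0759 to 0.158 for Got1, from 0.0981 to 0.190 for Pcx and from 0.0884 to 0.169 for Pck1 1439617_s_at. Over those 5 fits the log2 differences ran from -1.04 to -0.80 for Got1, from -0.66 to -0.53 for Pcx and from -1.83 to -1.33 for Pck1 1439617_s_at. With the mean Actb and Gapdh ratio as a covariate the differences were -0.40 for Pcx, -0.65 for Pck1 1439617_s_at and -0.56 for Got1, with 0 members called and 0 of all probe sets called. The part of RNA completeness in the lower signals was not tested beyond these values.

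The scale between arrays also bore on the calls. On the values as deposited 1 member, Pck1 1439617_s_at, was called, and the log2 difference was -0.44 for Pcx and -0.66 for Got1. The split of all calls then moved from 392 higher and 162 lower to 289 higher and 23 lower, and with median centring to 410 higher and 72 lower.

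Several probe sets of one gene gave a view along the transcript. The 4 chip control sets of Pcx read its 5' part, its middle (A and B) and its 3' part, and the order of A and B along the transcript is not stated in the files. The 3' part read 1519, 1631 and 1603 in liver controls and 1144, 1203 and 982 in mutants. Middle B read 1198, 1022 and 1184 in controls against 189, 717 and 224 in mutants. In both, every mutant lay below every control, and at middle B mutants 1 and 3 lay far below mutant 2. Middle A read 588, 454 and 635 in controls and 107, 366 and 51.2 in mutants, and the 5' part read 452, 381 and 658 against 111, 292 and 78.3. Mutants 1 and 3 were again far below mutant 2.

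In a fit chosen after seeing the data, with these 4 sets added, the Pcx log2 difference was -0.51 ± 0.13 at the 3' part (SE, limma adjusted p = 0.0700), -1.80 ± 0.39 at middle B (adjusted p = 0.0463), -1.96 ± 0.49 at middle A (adjusted p = 0.0712) and -1.69 ± 0.38 at the 5' part (adjusted p = 0.0523). Middle B was the 1 control set called. The 3' to 5' ratio of Pcx was 11.8 and 13.2 in mutants 1 and 3, 4.09 in mutant 2 and 2.33 to 4.21 in liver controls. The same 2 arrays had the high Actb and Gapdh ratios given above, and their part in the lower signal toward the 5' end was not tested.

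Whether probe sets of one gene moved differently was tested on the difference between them in each array, over 12 pairs, 10 of them within Pcx. With 3 against 3 arrays the exact two-sided permutation test cannot go below p = 0.10, and after adjustment over the 12 pairs the smallest p was 0.30, so that no pair could pass. The 2 Pck1 sets differed by 1.21 ± 0.37 more on the log2 scale in mutants than in controls (SE, exact permutation p = 0.10). Their difference was 0.87, 0.68 and 0.37 in controls and 2.27, 1.19 and 2.09 in mutants, without overlap. Pcx 1416383_a_at and middle B differed by 1.17 ± 0.47 more in mutants (SE, exact permutation p = 0.10), and the 3' part and middle B by 1.28 ± 0.54 (exact permutation p = 0.10). The leading Pcx set and the 3' part, by contrast, differed by -0.11 ± 0.09 (SE, exact permutation p = 0.30). For Gpt the pair differed by -0.74 ± 0.37 (SE, exact permutation p = 0.20). Positions of the ordinary probe sets along their transcripts were not given in the sources used here.

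**Figure D2:**
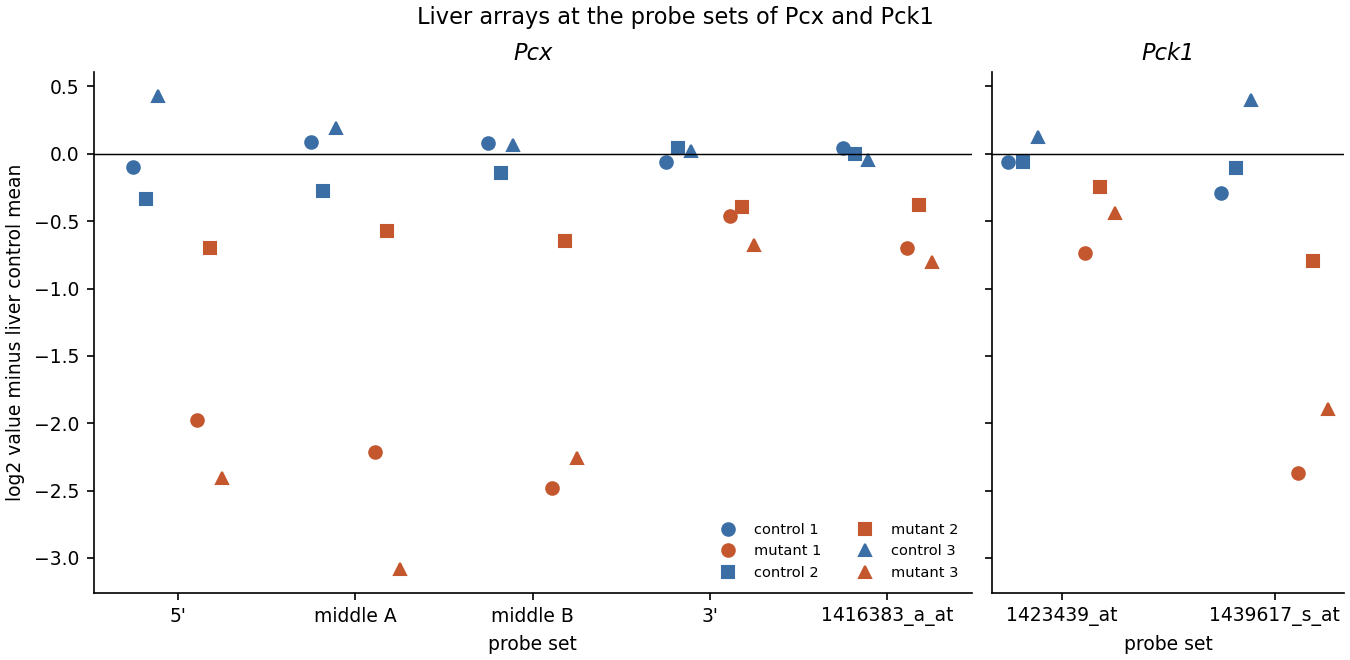
Log2 value of each liver array minus the mean of the liver controls (vertical axis) at the 5 probe sets of Pcx, chip control sets first, and at the 2 sets of Pck1 past the filter; colours are genotype and symbols are samples 1, 2 and 3. Mutants 1 and 3 lie between -1.90 and -3.08 at the 5' part, middle A and middle B of Pcx and at Pck1 1439617_s_at, while mutant 2 stays between -0.24 and -0.79 at all 7 sets.

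In quadriceps muscle 8 of the 11 ordinary members were above the filter, a mean intensity of 13.0, and 0 were called by limma, with 0 also at an unadjusted p under 0.05, where 4.46% of all probe sets tested had one. Over all 27022 probe sets tested, 0.00740% were called higher and 0% lower. The 8 log2 differences ran from -0.39 to 0.09, 4 below and 4 above 0, and the groups of all 8 overlapped, where 4.58% of all probe sets tested were higher and 5.12% lower without overlap. Got1 read 1709, 1997 and 1659.7 in muscle controls and 1807, 1611 and 1118 in mutants, with mutant 3 the lowest (log2 difference -0.26 ± 0.16, SE, limma adjusted p = 0.989). Pcx read 301, 312 and 274 in controls and 239, 278 and 359 in mutants (log2 difference -0.03 ± 0.15, SE, limma adjusted p = 0.998). Pck1 1439617_s_at had the most negative difference, -0.39 ± 0.22 (SE, limma adjusted p = 0.989), at only 25.5 to 48.9 in controls and 19.0 to 26.7 in mutants. The Pcx chip control sets gave muscle log2 differences of -0.05 at the 5' part, 0.01 and 0.02 at middle A and B and -0.08 at the 3' part, none of them called. Fbp2, the muscle isozyme, read 176, 232 and 409.6 in controls and 351, 177 and 287 in mutants, with a wide scatter in both groups (log2 difference 0.03 ± 0.29, SE, limma adjusted p = 0.998). Gpt 1426502_s_at read 128, 136 and 101 in controls and 86.3, 132 and 152 in mutants. Mutants lay on both sides of the controls, and the difference was -0.0018 ± 0.20. The leading Pck1 set read 19.3, 73.4 and 17.9 in controls and 19.5, 56.8 and 33.4 in mutants, Fbp1 19.3 to 37.9 in controls and 24.2 to 35.1 in mutants, and Tat 5.43 to 22.9 and 6.05 to 23.9. G6pc, Gpt 1453216_at and Pck1 1455209_at were not past the muscle filter, with G6pc between 0.833 and 2.90 on all 6 arrays.

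**Figure D3:**
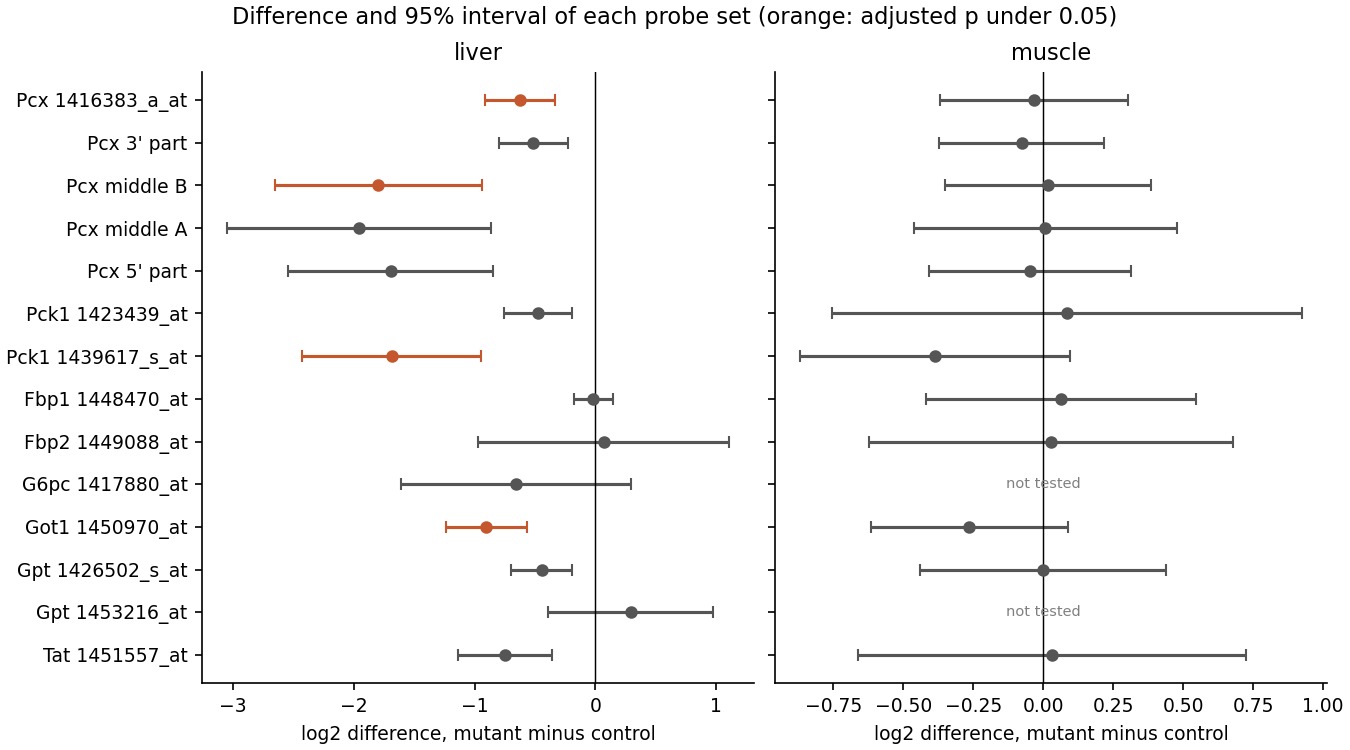
Log2 difference, mutant minus control, with its 95% interval from limma, for each member probe set tested in liver (left) and muscle (right); the 2 horizontal scales differ, and orange marks an adjusted p under 0.05. In liver, the intervals of Pcx, Pck1, Got1, Tat and Gpt 1426502_s_at lie below 0, and in muscle every interval includes 0.

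Whether the response differed between tissues was tested as an interaction over the 12 arrays. Of the 8 members past the filter in both tissues 0 were called by limma, beside 0.810% of all 23096 probe sets, and 4 had an unadjusted p under 0.05, beside 14.9% of all. The liver difference minus the muscle difference was -1.30 ± 0.43 for Pck1 1439617_s_at (SE, limma adjusted p = 0.166), -0.59 ± 0.21 for Pcx (adjusted p = 0.190), -0.64 ± 0.24 for Got1 (adjusted p = 0.226) and -0.78 ± 0.35 for Tat (adjusted p = 0.315). A difference between the tissues was thus not shown for any member. Without liver mutant 2, 1 member, Pck1 1439617_s_at, was called lower, in a fit that called 2.41% of all 23056 probe sets lower.

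The control groups gave the tissue in which each enzyme was expressed. With all 12 arrays normalised together, 9 of 10 member probe sets were higher in control liver than in control muscle and 1, Fbp2, was lower, where 21.9% of all 30951 probe sets tested were called higher and 25.1% lower. G6pc and Gpt 1453216_at were past the filter in liver only, so their direction was fixed by the filter. Of the 8 past it in both tissues, 7 were higher and 1 lower in liver. G6pc read 1250.1, 1958 and 884 in control liver and 2.79, 3.85 and 2.02 in control muscle on this joint scale, and no size of its difference is given because the muscle values were below the filter. The liver-minus-muscle log2 difference was 7.60 ± 0.15 for Fbp1 (SE, limma adjusted p = 2.37e-16), 7.10 ± 0.26 for Tat and 6.59 ± 0.31 for Pck1 1423439_at. Gpt 1426502_s_at stood at 3.72 ± 0.17 and Pcx at 2.38 ± 0.15. Fbp2, the muscle isozyme, stood at -3.05 ± 0.41 (SE, limma adjusted p = 8.28e-06). These are level differences of one probe set between tissues, and no level is set against that of another gene. On values as deposited the median of all probe sets in this comparison moved from -0.01 to 0.46 and the split of all calls from 6789 higher and 7783 lower to 12397 higher and 4169 lower, with the same 9 and 1 members.

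Got1 was the member closest to even between the tissues. On the common scale of the 12 arrays it averaged 3393 ± 612 in liver control (SD, n = 3), 2462 ± 260.1 in muscle control, 2074 ± 493 in muscle mutant and 1810.4 ± 269 in liver mutant. Liver control stood above the other groups without overlap, and neighbours among those overlapped. Its liver-to-muscle difference between controls was 0.45 ± 0.17 (SE, limma adjusted p = 0.0406), a call that 7 of the alternatives run ended, among them an offset of 1 (adjusted p = 0.0536) and each of liver control 1, liver control 3, muscle control 1 and muscle control 3 left out (adjusted p from 0.0877 to 0.173). Pcx was ordered by tissue first, with 2015 ± 63.8 in liver control (SD), 1328 ± 197 in liver mutant, and 375 ± 26.6 and 370.5 ± 83.3 in muscle control and mutant, the last pair overlapping. Tat averaged 4672 ± 249 and 2819.9 ± 733 in liver control and mutant without overlap, against 19.5 ± 11.4 and 20.3 ± 11.6 in muscle control and mutant. Fbp2 ran the other way, at 346 ± 164 and 344 ± 117 in muscle control and mutant and 28.7 ± 20.7 and 30.5 ± 23.4 in liver control and mutant, each pair overlapping.

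**Figure D4:**
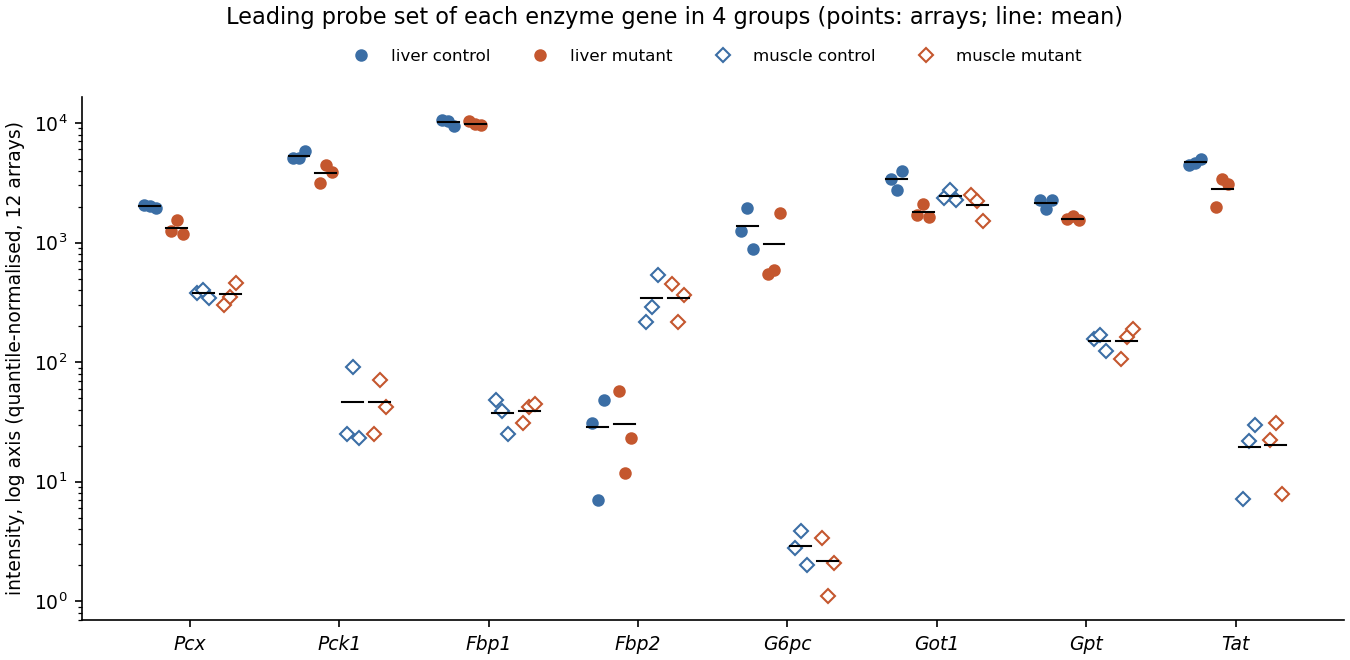
Intensity of the leading probe set of each of 8 enzyme genes on all 12 arrays, on a log axis, after quantile normalisation over the 12 arrays; points are arrays and lines are group means (n = 3). All genes but Fbp2 and Got1 sit well above their muscle values in both liver groups, Fbp2 sits higher in muscle, and Got1 in mutant liver reaches down to its muscle values.

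The wider pathway in liver was read from 5 lists, with the leading probe set of each gene. In the main fit 0.585% of all 13327 genes tested were called lower. Of 10 measured genes for mitochondrial steps, shuttles and isozymes 1 fell and 0 rose, with a median log2 difference of -0.42 beside 0.01 for all genes tested. The gene that fell was Got2, the mitochondrial partner of Got1 in the malate-aspartate shuttle. It read 5812, 5914 and 6448 in controls and 4027, 4696 and 4016 in mutants, without overlap (log2 difference -0.51 ± 0.10, SE, limma adjusted p = 0.0384). As for the enzymes, 0 of all probe sets, Got2 included, were called without liver mutants 1 and 3 together. Of all probe sets tested in liver 50.3% had a difference below 0. Of 16 regulators of the pathway's genes 0 were called, with a median of -0.32 and 13 of 16 below 0. The smallest p-values among them were those of Cebpa, a liver transcription factor, at -0.47 ± 0.11 (SE, limma adjusted p = 0.0526), and Insr, the insulin receptor, at -0.77 ± 0.17 (SE, limma adjusted p = 0.0531).

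The other lists had 0 called genes in liver. Glycerol and lactate entry, with 5 of 6 genes measured, had a median of -0.34 and its smallest p-values at Gpd2, the mitochondrial glycerol-3-phosphate dehydrogenase, at -0.88 ± 0.25 (SE, limma adjusted p = 0.102), and Aqp9, a glycerol channel, at -0.34 ± 0.11 (SE, limma adjusted p = 0.129). The opposing steps of glycolysis, with 6 of 8 genes measured, had a median of -0.20, led by the phosphofructokinase gene Pfkl at -0.39 ± 0.14 (SE, limma adjusted p = 0.178), followed by the liver pyruvate kinase gene Pklr at -0.35 ± 0.27 (SE, limma adjusted p = 0.562). The reversible steps shared with glycolysis, with 4 of 8 measured, had a median of -0.14, led by the triose phosphate isomerase gene Tpi1 at -0.43 ± 0.16 (SE, limma adjusted p = 0.182), followed by the lactate dehydrogenase gene Ldha at -0.16 ± 0.14 (SE, limma adjusted p = 0.638). Unadjusted p-values under 0.05 were found in liver for 3 of 5, 1 of 6 and 1 of 4 genes of these lists, and for 3 of 10 and 5 of 16 of the mitochondrial and regulator lists, where 18.7% of all 13327 genes tested in liver had one. In muscle limma called 0 genes of any of the 5 lists. The mitochondrial list had all 10 muscle differences below 0, with a median of -0.16 and 4 unadjusted p-values under 0.05, while its smallest adjusted p was 0.989. Of all 13131 genes tested in muscle, 50.1% had a difference below 0 and 4.39% an unadjusted p under 0.05. The other lists had 1 unadjusted p under 0.05 in muscle, among the regulators.

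**Figure D5:**
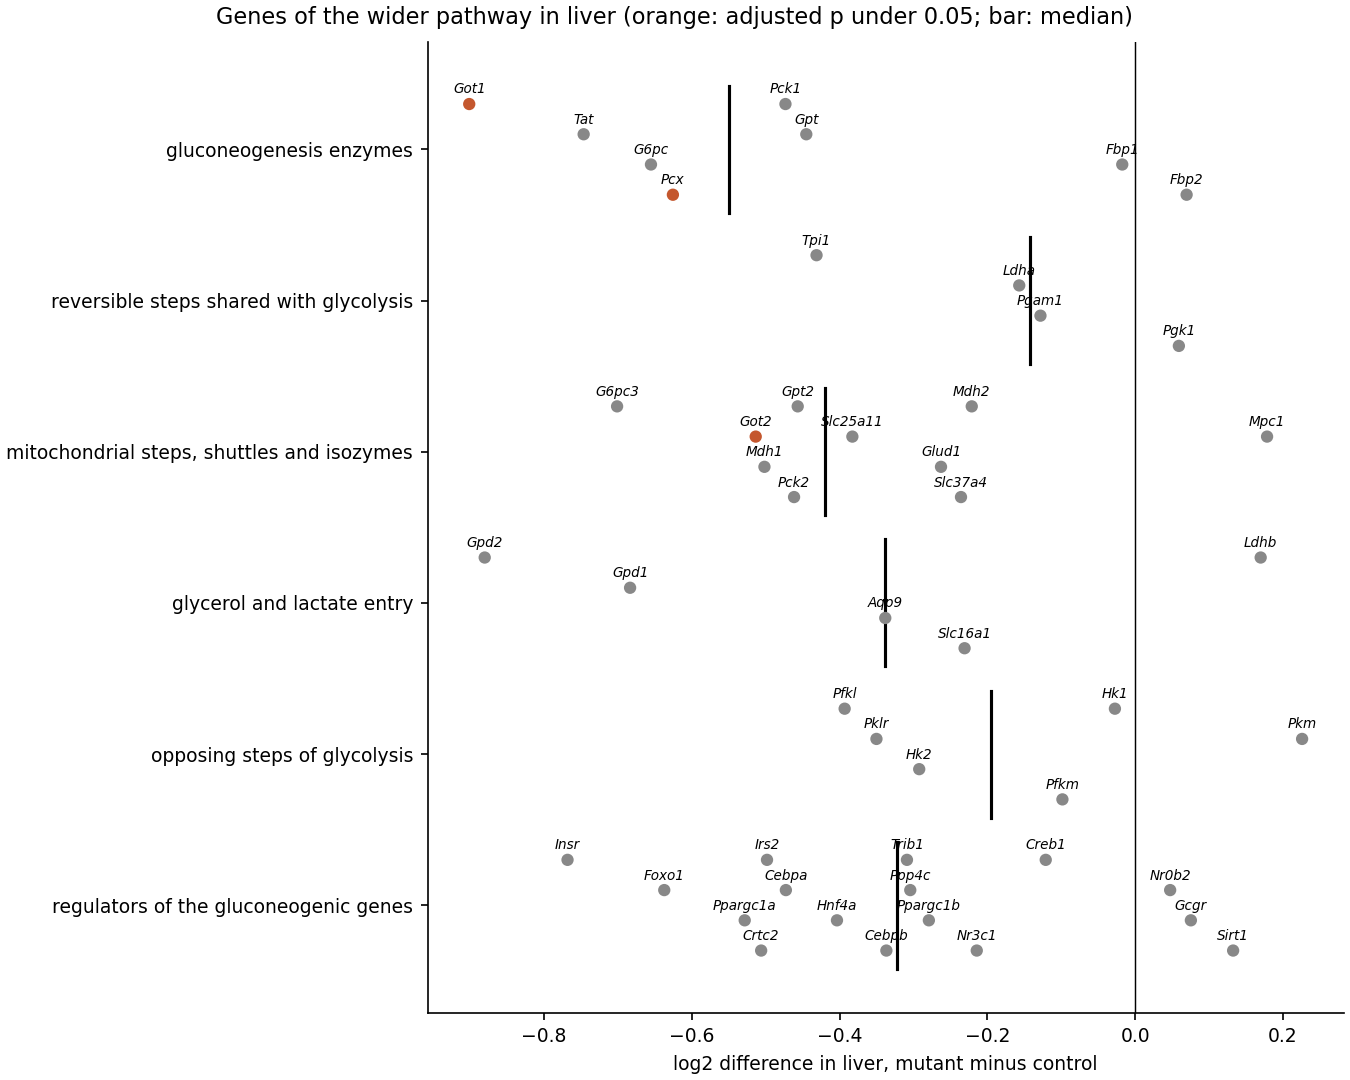
Log2 difference in liver, mutant minus control, of the leading probe set of each measured gene (points) in the enzyme set and 5 wider lists (rows), with the median of each row as a bar and orange for an adjusted p under 0.05. All 6 medians lie below 0, and the called genes are Got1, Pcx and Got2.

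Markers of the cells that liver tissue holds were read beside these results. The hepatocyte list had 0 of 7 markers called, and its summed intensity was 62041 to 63612 in controls and 52914 to 58706 in mutants. The periportal list, for the zone where gluconeogenesis is strongest, had 0 of 5 tested markers called and a summed intensity of 19249 to 21019.7 against 15502 to 17288. The pericentral list had 1 of 8 called, Lect2, which rose by 0.61 (limma adjusted p = 0.0476), where 1.45% of all probe sets tested were called higher. Of the 8 markers 6 had a difference below 0 and 2 above, with a median of -0.05. The pericentral sums were 33207 to 35802 against 31986 to 34204. The Kupffer cell and macrophage list had 1 of 7 called, Lyz2, which rose by 1.28 (limma adjusted p = 0.0254). All 7 differences were above 0, where 50.3% of all probe sets tested in liver were below 0. The macrophage sums were 1075 to 1556 in controls and 1867 to 2441 in mutants. Skeletal muscle fibre markers summed to 93.8 to 151 over the 6 liver arrays, with Acta1, Myh4, Mb and Tnnt3 not past the filter, and to at least 93421 in muscle. Of the adipocyte markers Adipoq, Lep and Cidec were not past the liver filter, with sums of 112 to 121 in controls and 155 to 208 in mutants. Red blood cell, endothelial and kidney proximal tubule lists had 0 called in liver. The hepatocyte, periportal, macrophage and adipocyte sums did not overlap between the liver groups, but no share over all genes was computed for sums. A sum follows its brightest markers, and Cps1 was in both the hepatocyte and periportal lists. On the liver scale, which is not that of the sums, Apob averaged 9053 in controls and 5525 in mutants. The other hepatocyte log2 differences ran from -0.18 to 0.07. Cyp2f2, a periportal marker, averaged 10995.5 and 8233 (log2 difference -0.42, limma adjusted p = 0.0667). The other tested periportal log2 differences ran from -0.32 to 0.12. Fabp4, the 1 adipocyte marker tested in liver, averaged 99.3 and 182. The part of these sums in the lower enzyme signals was not tested.

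The genes most like the mean of the enzymes over the 6 liver arrays were found by Pearson correlation, over 13319 genes. The mean of the 8 members was 0.27, 0.14 and 0.31 in controls 1, 2 and 3 and -0.32, -0.25 and -0.14 in mutants 1, 2 and 3. Scattered members shaped it too, as G6pc lay 0.47 above its control mean in mutant 3 and Fbp2 0.88 above in mutant 1. The mean need not follow each enzyme. The 5 genes most like this mean were Hgsnat (r = 0.996), F2 (r = 0.989), Hspd1 (r = 0.986), Xpnpep3 (r = 0.983) and Ccdc91 (r = 0.981). In all, 238 genes had r above 0.9. The points are arrays of both genotypes, so any gene that separates the groups scores high. F2, the prothrombin gene, read 8824, 8436 and 8756 in controls and 7712, 7712 and 8056 in mutants. Hspd1, a mitochondrial chaperonin, read 5269, 4696 and 5048 in controls and 2956, 3409 and 3733 in mutants, and was the 1 of the 5 that was called (log2 difference -0.57, limma adjusted p = 0.0378). The lowest Hspd1 array was mutant 1, as for Tat and Pck1 1423439_at, while for Pcx 1416383_a_at, Got1 and Gpt 1426502_s_at it was mutant 3.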

How the data were processed

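Each array gave 1 intensity per probe set. These are linear intensity values as deposited, and the algorithm and scaling behind them were not given in the sources used here (the labels name d-Chip for clustering only). Gene symbols came from a platform annotation of 2016, updated through Entrez identifiers for 34741 probe sets. Of 45037 analysed probe sets 34945 had 1 symbol, 932 several and 9160 none, and 64 chip control sets stayed out of the main fits.

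Values were taken as log2(value + 16), quantile-normalised within each tissue (over all 12 arrays between tissues), and kept above the 40th percentile of the tissue. They were fitted with limma 3.58.1 in R 4.3.3, with a variance trend and Benjamini-Hochberg adjustment over all probe sets tested. Pairs of probe sets were tested by exact permutation in Python 3.11.15 with SciPy 1.17.1, and figures were drawn with matplotlib 3.10.9. The brightest ordinary probe set over the 12 arrays led for each gene.

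Named besides members and Ppargc1b were the called genes of each wider list, otherwise its 2 with the smallest p in liver, and the 5 most correlated genes. Some cell markers were named as well. Members and lists were chosen with earlier results of these data known. Genes of the lists without a single-symbol probe set were not analysed here. On simulated data the liver fit recovered 1.41% of 1.5-fold, 11.9% of 2-fold and 57.1% of 4-fold changes over 27022 probe sets. The simulation planted 71, 59 and 70 such changes, with noise drawn independently for each probe set, so its rates need not hold for the real data. The alternatives were the offset, filter, normalisation, variance trend, unit, replicate block, RNA ratio covariate and arrays left out.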

Additional observations from a re-analysis of the deposited data

How the results depend on the processing

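With 3 arrays a group, many changes could be missed. On simulated data the liver fit recovered 11.9% of 2-fold and 57.1% of 4-fold changes. That simulated fit called 48 probe sets, where the real liver fit called 392 higher and 162 lower. The simulated rates thus need not hold for the real data. Recovery was not split by intensity, so that of dim probe sets is not known. The liver calls were the least stable results. The 3 members called in liver became 1 with median centring and 1 on values as deposited. They became 0 without the filter, in a fit that called 139 higher and 19 lower of 45037 probe sets. They were also 0 without the variance trend, with the RNA ratio covariate and with the replicate block. Each of those 3 fits called 0 of all 27022 probe sets. Leaving out single arrays gave 0 to 5 in liver and, for the difference between tissues, 0 to 1. The 5 came without liver mutant 2, where 978 of all probe sets were called lower, and the other single-array liver fits called at most 5 lower. Counts in muscle and between tissues were within 1.5 times under every alternative run.

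Same-numbered liver arrays correlated at -0.02, -0.11 and -0.04 in their deviations from the group means, against means of 0.006, 0.057 and 0.016 for other numbers. Muscle arrays correlated at 0.03, 0.06 and 0.17, against -0.015, -0.026 and -0.086. Between liver and muscle, same-numbered arrays correlated at -0.026, 0.006 and -0.002 in controls and at -0.002, 0.055 and 0.014 in mutants. These values do not settle whether the replicate numbers pair the samples. A replicate block left 0 members called in liver, with 0 of all probe sets called.

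The sign of some uncalled differences turned. In liver, Fbp1 was 0.10 on values as deposited and 0.098 with median centring. Fbp2 was -0.35 with the covariate, -0.61 without mutants 1 and 3 together, and -0.40 to 0.41 with single arrays left out. Gpt 1453216_at was -0.060 without mutants 1 and 3 together and -0.022 to 0.63 with single arrays left out. In muscle, Pcx was 0.0024 with median centring and 0.026 with the covariate, and Tat was -0.084 with the covariate. Gpt 1426502_s_at was 0.0031 with an offset of 64, 0.020 as deposited, 0.033 with median centring and 0.022 with the covariate. With single muscle arrays left out, the range was -0.18 to 0.092 for Pcx, -0.18 to 0.55 for Pck1 1423439_at, -0.15 to 0.21 for Gpt 1426502_s_at, -0.11 to 0.20 for Fbp1, -0.23 to 0.35 for Fbp2 and -0.21 to 0.27 for Tat. The cause of these turns was not tested.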
